A study of Ciona robusta with 12 samples.

Results

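The change in transcript levels between the 64-cell and the 112-cell stage was followed in embryos of the tunicate Ciona robusta in which the kinase MEK was inhibited. The libraries were those labelled U0126, 3 replicates collected at 64 cells and 3 at 112 cells, which is 6 of the 12 libraries of the series. The other 6 libraries came from embryos given the carrier DMSO and collected at the same stages, and serve as the background. Per the labels, whole embryos grown at 21 °C received U0126 at 4 mM or DMSO at the 32-cell stage. The carrier was diluted 1:1000 in both arms, and each library was made from 300 embryos. The dose is given as labelled and could not be checked, nor whether it holds before or after dilution. The embryos were dechorionated, and the labels name no strain, clutch or batch. A replicate is a pool of embryos, which the series' design text calls biological.

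U0126 inhibits MEK, the kinase that activates ERK downstream of FGF receptors. In the early ascidian embryo FGF signals induce notochord, neural and mesenchyme fates in blastomeres next to their sources. In the same stages embryos hold a large store of maternal transcripts, while zygotic transcription is switched on in different lineages in turn. The comparison therefore asks which gene activation and which transcript loss went on while MEK was inhibited.

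The deposited tables name genes by KH2012 identifiers and the reference table used here carries none of these, so genes are given by identifier and without a role, and lists of pathway genes and lineage markers could not be matched. For the same reason the labelled tissue was not checked against markers. Reads over 15284 gene models totalled 13035651 to 14186256 in the U0126 libraries and 10623872 to 15956670 in all 12. A read was found for 13115 to 13339 genes per U0126 library at 64 cells and for 13483 to 13708 at 112 cells, and 754 genes had none in any U0126 library. Levels are counts scaled together over the 12 libraries, called normalized counts, so they are relative to the rest of the embryo's transcripts. A count of 0 allows up to 3 reads, or 2.98 to 3.42 normalized counts in a U0126 library. DMSO replicate 3 at 112 cells stood apart, with 210 genes lower there by 4-fold or more than in any other library, against 0 to 4 such genes in each U0126 library. The main counts that rest on a fit of DMSO embryos are therefore also given without replicate 3. That fit holds fewer pairs and leans more on a spread common to all genes. In whole embryos, more or fewer cells of a type and more or less RNA per cell cannot be told apart.

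Relative transcript levels both rose and fell in U0126 embryos. Of 11082 genes tested, 1426 (12.9%) rose between 64 and 112 cells and 1698 (15.3%) fell, together 28.2% of the genes, by limma's moderated test paired by replicate number at a Benjamini-Hochberg adjusted p under 0.05. The rises were larger than the falls. The median log2 fold change was 1.08 over the genes that rose and -0.46 over those that fell, against -0.01 over all genes tested. Of the genes that rose, 761 (53.4%) did so by at least 2-fold, 356 by at least 4-fold, 175 by at least 8-fold, 93 by at least 16-fold and 44 by at least 32-fold. Of those that fell, 102 (6.01%) did so by at least 2-fold, 3 by at least 4-fold and 0 by at least 8-fold. For 9150 genes (82.6% of those tested) the 95% interval of the stage change lay within 2-fold in either direction.

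**Figure D1:**
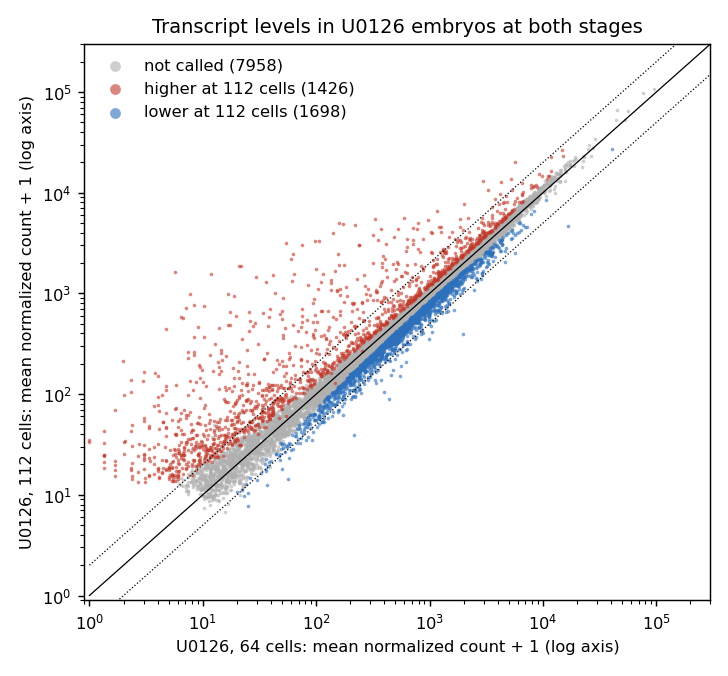
Mean normalized count + 1 of each tested gene in U0126 embryos at 64 cells (horizontal) and 112 cells (vertical), both on log axes. Each point is a gene, the solid line marks equal levels and the dotted lines a 2-fold change. The 1426 genes that rose reach far above the line at low starting levels, while the 1698 that fell lie close beneath it.

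The number of calls rested on the pairing. Without the replicate block 824 genes were called, 572 higher and 252 lower, all of them among the calls above, and the median residual SD of 0.129 on the log2 scale refers to the paired fit. The large changes depended less on it: 484 of the 761 rises of at least 2-fold, 173 of the 175 of at least 8-fold and 67 of the 102 falls of at least 2-fold were also called without the block. Scaling by total reads, which lowered the median change of all genes by 0.07 on the log2 scale, turned the split into 1178 higher and 2134 lower.

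Across the genes tested, the stage differences of any 2 of the 3 replicate pairs correlated at 0.795 to 0.853 (Pearson's r, a description, since genes are not independent). Of the genes tested, 54.8% had the same direction in all 3 pairs. The median log2 change of the genes that rose was 1.06 in replicate 1, 0.93 in replicate 2 and 1.13 in replicate 3. For the genes that fell it was -0.50 in replicate 1, -0.42 in replicate 2 and -0.48 in replicate 3. Replicate 2 thus had the smallest median change in both directions. Without it 5061 genes were called, 2613 higher and 2448 lower. That fit holds only 2 pairs and leans more on a spread common to all genes, so its count is a description.

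Among the genes called, those that rose had a low median level at 64 cells. The median of those that fell, mostly by little, was somewhat above that of all genes tested. The median level of the genes that rose was 91.0 normalized counts at 64 cells and 257 at 112 cells, and that of the genes that fell was 572 and 409, against 487 at 64 cells for all genes tested. To avoid sorting genes by the values that entered the test, they were also grouped by their mean in DMSO embryos at 64 cells. From 10 to 30 normalized counts, 236 of 1006 genes rose (23.5%) and 9 fell (0.895%). From 30 to 100, 18.0% rose and 6.32% fell. From 100 to 300, the balance turned, with 10.7% higher and 20.2% lower. The share that fell was highest, at 25.4% of 2974 genes, from 300 to 1000 normalized counts. Among the 1128 genes at 3000 and over, 8.16% rose and 6.65% fell. Small falls are called more readily at high counts. The median log2 change of the called falls was -1.14 at 10 to 30 counts and -0.43 at 300 to 1000. Falls of at least 2-fold started lower, with a median level of 219 at 64 cells. They made up 1.64% of the genes at 30 to 100 and 1.87% at 100 to 300. At 1000 to 3000 they made up 0.431%, and at 3000 and over 0.266%. Genes under 10 at 64 cells could hardly be tested unless they rose, so their shares carry no information: 191 genes passed the filter on low values only through the 112-cell libraries, and 180 of these were called higher.

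**Figure D2:**
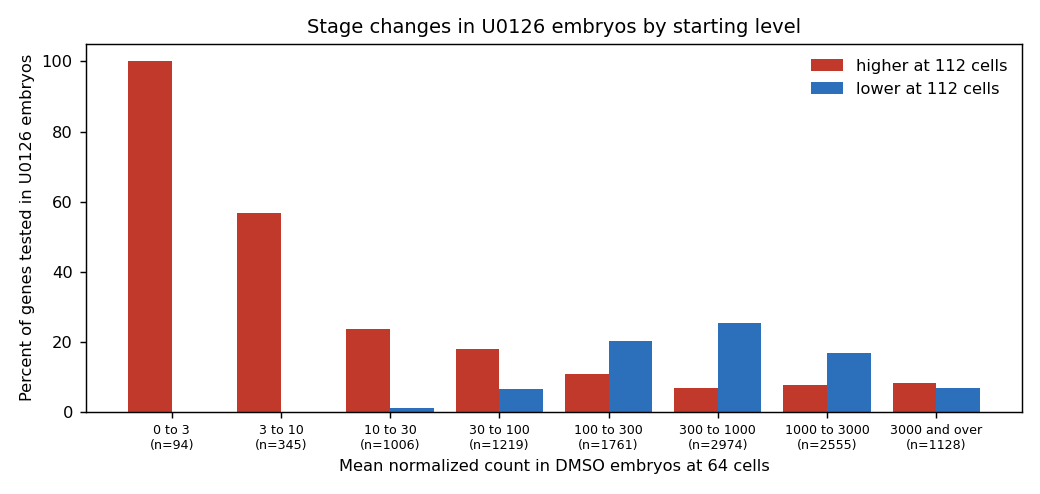
Percent of the genes tested in U0126 embryos that were higher (red) or lower (blue) at 112 cells, by the mean normalized count in DMSO embryos at 64 cells; n is the number of genes. The share that rose falls from 23.5% at 10 to 30 counts to 6.86% at 300 to 1000, where the share that fell is 25.4%, and the first pair of bins is shaped by the filter. Small falls are called more readily at high counts, and the share with a fall of at least 2-fold was highest, at 1.87%, from 100 to 300.

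Rises were not confined to low starting levels. Of the genes that rose, 271 had a mean under 10 normalized counts at 64 cells, with a median log2 change of 2.30, while 299 had a mean of at least 1000, with a median of 0.36. The genes that rose took 7.53% of the reads in replicate 1, 7.66% in replicate 2 and 7.58% in replicate 3 at 64 cells, and 12.6%, 11.6% and 12.4% in the same order at 112 cells. The genes that fell took 11.6%, 11.8% and 11.1% of the reads at 64 cells and 7.66%, 8.55% and 7.38% at 112 cells. In DMSO libraries, which had no part in choosing these genes, the risen set went from 7.30% to 7.47% of the reads at 64 cells to 10.8% to 11.2% at 112 cells. The fallen set went from 11.3% to 12.2% to 8.53% to 8.91%. Both sets therefore shifted in the same direction in DMSO embryos as under U0126.

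The largest rises took genes from near the detection limit to high levels. KH.S164.28 had 6.04, 3.17 and 4.97 normalized counts in U0126 replicates 1 to 3 at 64 cells and 1904, 1344 and 1632 at 112 cells. The stages were far apart in every replicate, with a log2 fold change of 8.17 (SE 0.17, n = 3 pairs, limma adjusted p = 4.24e-30). DMSO embryos had 11.6, 3.73 and 0.870 normalized counts at 64 cells and 1327, 1389 and 2025 at 112 cells, so the levels of both arms overlapped at each stage. KH.C7.67 had 1.01, 12.7 and 18.9 normalized counts in U0126 embryos at 64 cells and 1523, 1334 and 1805 at 112 cells. Its log2 fold change was 7.56 (SE 0.29, n = 3 pairs, limma adjusted p = 2.16e-22). DMSO embryos reached 339, 548 and 927 at 112 cells from 0.892, 5.59 and 1.74, so at 112 cells every U0126 library lay above every DMSO library. The stage change of KH.C7.67 was 7.42 in DMSO embryos on the log2 scale.

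The 175 genes that rose at least 8-fold had a median of 9.02 normalized counts at 64 cells and 217 at 112 cells under U0126. In DMSO embryos, whose libraries did not enter their choice, the medians were 6.55 and 156. Of these 175 genes 157 passed the filter in DMSO embryos, all 157 had a positive stage change there and 142 were called higher, where 3.83% of all 11181 genes tested in DMSO embryos were called higher. Without replicate 3 the DMSO fit called 159 of 161 tested as higher, where 11.4% of all 11322 genes were. Passing the filter through a high 112-cell level favours a rise, and 71 of the 175 genes were tested under U0126 only through their 112-cell libraries. The median log2 change over the set was 4.06 under U0126 and 3.94 in DMSO embryos. Of the 175 genes 1 was called for a difference between the arms, where 0.266% of all genes were. It was KH.C2.995, which is described with the differences. With 31 calls in all, a count of 1 says little about the set.

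A stricter group of newly activated genes had at most 3 reads in every U0126 library at 64 cells and at least 10 normalized counts in every one at 112 cells. It held 45 genes, whose means at 112 cells ran from 12.3 to 210 normalized counts with a median of 24.0. Most were thus expressed at a low level when first detected. The rule allows at most 3 reads per library at 64 cells. Against that level, the means of the 45 genes at 112 cells were 4.02-fold to 68.7-fold higher. For genes with reads at 64 cells this ratio is no lower limit of the rise, since it leaves out counting error. The rule selects genes that rise, and what it does not use is their level in DMSO embryos. There the median over the 45 genes was 0.892, 0.932 and 1.74 normalized counts in replicates 1 to 3 at 64 cells and 16.3, 13.5 and 16.0 at 112 cells, beside 24.5, 20.1 and 24.0 in U0126 embryos at 112 cells. All 45 genes had a higher mean at 112 than at 64 cells in DMSO embryos, and 24 passed the filter there, of which 20 were called higher (26 of 28 without replicate 3). All 24 passed only through their 112-cell libraries, which leaves little room for another call, so the count carries no weight beside the 3.83% of all genes. The number of the 45 called for a difference between the arms was 0 with limma, edgeR and DESeq2, where limma called 0.266% of all genes, and 9 (20% of the 45) had an unadjusted p under 0.05, against 4.13% of all genes. The stage change was larger under U0126 in 8 of these 9, the direction that choosing the genes by their rise under U0126 favours.

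KH.C12.628 and KH.C3.511 were the most abundant of the newly activated genes at 112 cells. KH.C12.628 had 0, 0 and 3 reads in U0126 replicates 1 to 3 at 64 cells and 178, 170 and 228 reads at 112 cells. The ratio of summed reads, scaled to library size, was 205 with a 95% exact interval of 69.8 to 997 that covers counting error only. Its fitted log2 fold change was 7.04 (SE 0.37, n = 3 pairs, limma adjusted p = 4.02e-18). In normalized counts it reached 190, 180 and 260 under U0126, and 106, 139 and 147 in DMSO embryos. KH.C3.511 had 3, 2 and 1 reads at 64 cells and 217, 104 and 138 at 112 cells under U0126, a ratio of 81.7 with an interval of 37.2 to 224. Its log2 fold change was 5.77 (SE 0.33, n = 3 pairs, limma adjusted p = 5.89e-17). At 112 cells it had 232, 110 and 157 normalized counts under U0126 and 113, 86.0 and 157 in DMSO embryos, so the arms overlapped.

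Of the 45 genes 2 had no read in any U0126 library at 64 cells, KH.C3.100 and KH.C4.1, which are named after their values were seen. Neither had a read in a DMSO library at 64 cells. KH.C3.100 reached 46.9, 28.6 and 22.8 normalized counts under U0126 at 112 cells and 44.6, 43.5 and 45.7 in DMSO embryos. KH.C4.1 reached 30.9, 26.4 and 44.5 under U0126 and 15.4, 23.8 and 18.3 in DMSO embryos. Against 3 reads in each library, their means were at least 10.7-fold and at least 11.1-fold higher at 112 cells under U0126.

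The same rule applied to the DMSO libraries gave 46 newly activated genes, of which 16 were also in the U0126 group, 35.6% of one list and 34.8% of the other. Without replicate 3 the rule gave 92 genes in DMSO embryos, and 19 were shared, 42.2% of the U0126 group and 20.7% of the DMSO group. Under U0126, 29 of the 46 genes passed the filter and were called higher, but 26 of these passed only through their 112-cell libraries, which favours that call. The medians over the 46 genes were 1.35 and 33.1 normalized counts at 64 and 112 cells under U0126, and 0.892 and 30.4 in DMSO embryos. A single one of the 46 was called for a difference between the arms, where 0.266% of all genes were. This gene was KH.S1090.3, named after its values were seen. It had no read in DMSO embryos at 64 cells and 22.8 to 38.9 normalized counts at 112 cells. Under U0126 it stayed at 2.01, 1.06 and 1.99 at 64 cells and 2.13, 1.06 and 1.14 at 112 cells, which is at or under the limit of 3 reads.

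**Figure D3:**
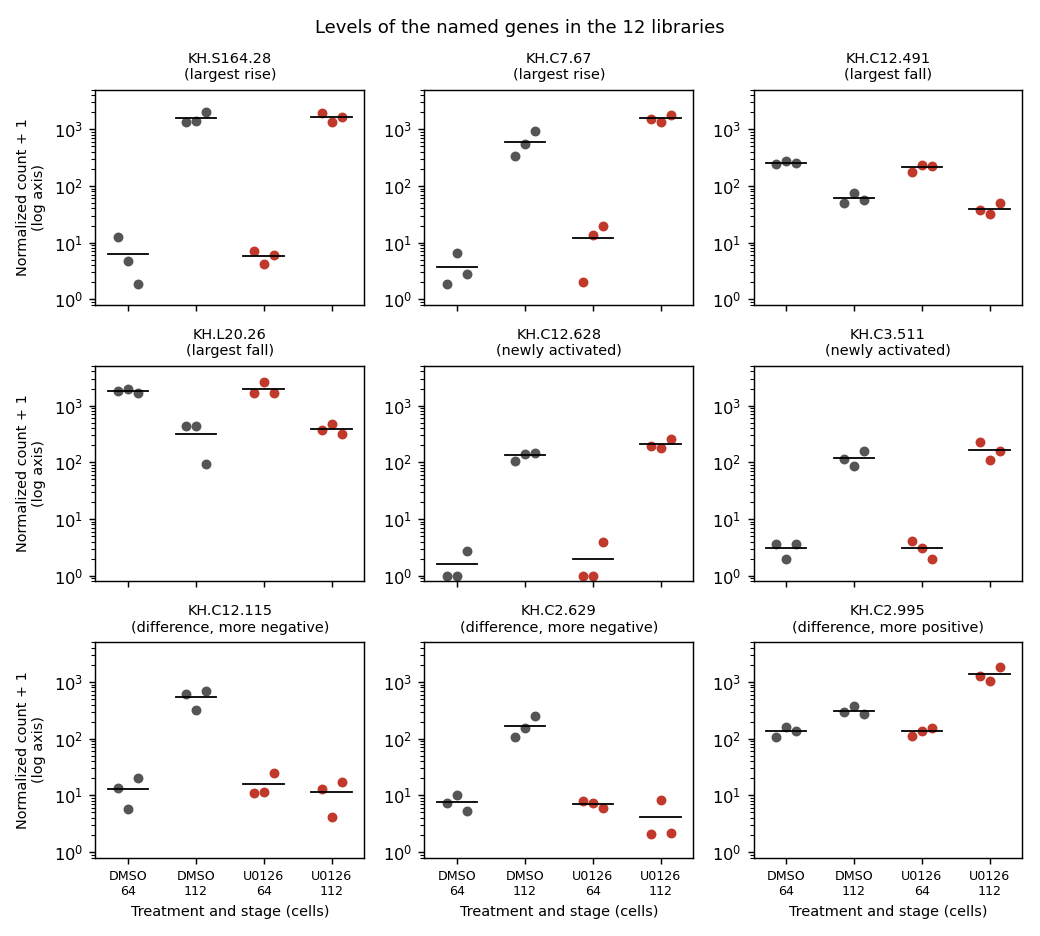
Normalized count + 1 (log axis) of the named genes in each of the 12 libraries, with DMSO in grey, U0126 in red, the replicates in order from left to right and the bar at the mean. KH.S164.28 reaches 1344 to 1904 under U0126 at 112 cells, within the DMSO range, whereas KH.C12.115 stays at 3.17 to 16.0 where DMSO embryos reach 320 to 691.

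The falls under U0126 were mostly shallow. They are falls in relative level, and loss of RNA itself was not measured. Their number rested on the pairing, with 252 called without the replicate block. Over the 1698 genes that fell, the median gene kept 72.9% of its 64-cell mean at 112 cells. Of these, 1438 (84.7%) had a mean of at least 200 normalized counts at 64 cells. The median over all genes tested was 487, so most of these also lay above 200. The 102 genes that fell at least 2-fold kept a median of 45.5%, and the lowest kept 18.1%. Of these 102 genes 29 had a mean under 100 normalized counts at 64 cells and 14 a mean of at least 1000. No transcript went from at least 10 normalized counts in every library at 64 cells to at most 3 reads in every library at 112 cells. That count was 0 with limma at an adjusted p and at an unadjusted p under 0.05, and 0 with edgeR and DESeq2.

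The largest falls left a clearly measurable transcript. KH.C12.491 had 178, 238 and 225 normalized counts in U0126 replicates 1 to 3 at 64 cells and 36.3, 30.7 and 49.1 at 112 cells. The log2 fold change was -2.45 (SE 0.18, n = 3 pairs, limma adjusted p = 9.54e-14), and 18.1% of the 64-cell mean was left. KH.L20.26 fell from 1695, 2562 and 1665 normalized counts to 375, 475 and 321, with 19.8% left and a log2 fold change of -2.33 (SE 0.10, n = 3 pairs, limma adjusted p = 3.01e-21). The third gene past 4-fold, KH.C8.396, named after its values were seen, fell from 332, 503 and 471 to 85.4, 85.7 and 95.9 normalized counts, with a log2 fold change of -2.26 (SE 0.14, n = 3 pairs, limma adjusted p = 3.74e-16).

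DMSO embryos showed falls of similar size for these genes. KH.C12.491 went from 242, 272 and 248 normalized counts to 48.9, 72.5 and 56.0, a log2 change of -2.10 (limma adjusted p = 0.00854). KH.C8.396 went from 349, 350 and 436 to 52.3, 70.5 and 44.6, a log2 change of -2.76 (limma adjusted p = 0.00966). KH.L20.26 went from 1792, 1972 and 1696 to 441, 427 and 93.7, a log2 change of -2.80 that missed the threshold (limma adjusted p = 0.0521). The lowest of these values is that of replicate 3 at 112 cells.

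All 102 genes that fell at least 2-fold were tested in DMSO embryos. There 95 had a negative stage change and 25 were called lower, against 0.385% of all genes tested. Without replicate 3, 96 had a negative change and 79 were called lower, against 11.6% of all genes. Their median log2 change was -1.14 under U0126 and -0.98 in DMSO embryos. Their median level went from 219 to 94.0 normalized counts under U0126 and from 221 to 115 in DMSO embryos. In every DMSO library at 112 cells the median over the 102 genes lay above that in every U0126 library, at 117, 118 and 114 against 95.5, 104 and 86.2 in replicates 1 to 3. Choosing the genes by their fall under U0126 favours the lower U0126 medians, so these are a description. A difference between the arms was called for 2 of the 102 genes (1.96%, against 0.266% of all genes), KH.C12.211 and KH.C3.762.

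**Figure D4:**
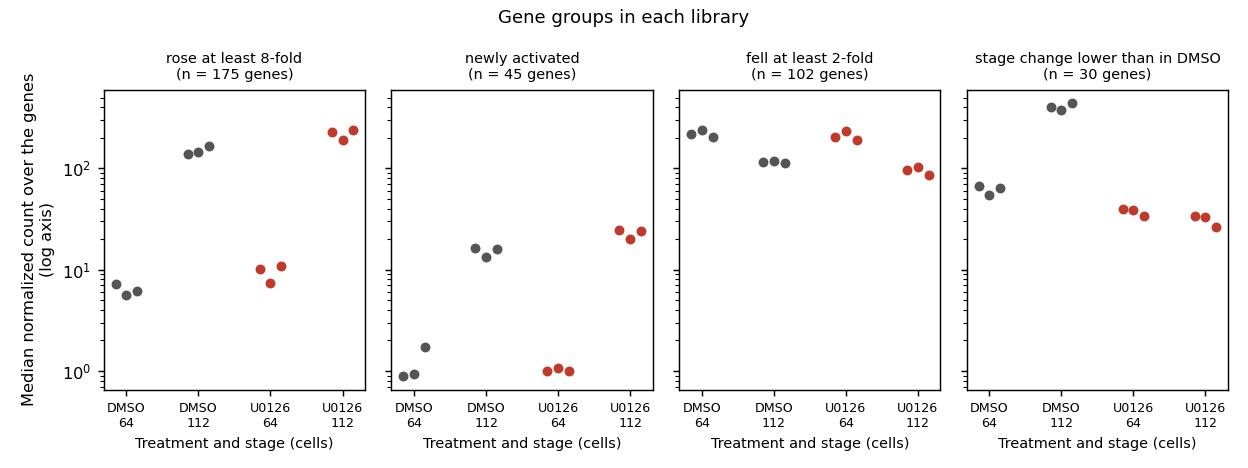
Median normalized count (log axis) over 4 gene groups in each library, with DMSO in grey, U0126 in red and the replicates in order from left to right. Strong risers reach 193 to 239 in U0126 and 137 to 166 in DMSO libraries at 112 cells, and the 30 genes called with a lower stage change stay at 26.2 to 34.1 under U0126 where DMSO embryos reach 377 to 440; as the genes were chosen by these changes, the gaps between the arms are a description.

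Set beside each other over all genes called under U0126, the stage changes of the arms, which share no library, mostly had the same direction. Of the 1426 genes that rose under U0126, 1352 were tested in DMSO embryos and 1230 had a positive change there (91.0%, against 49.3% of all genes tested in DMSO embryos, and 99.3% against 51.0% without replicate 3). Their median log2 change was 1.01 under U0126 and 0.85 in DMSO embryos. Of the 1698 that fell, 1697 were tested in DMSO embryos and 1587 had a negative change there (93.5%, against 50.7%, and 98.2% against 49.0% without replicate 3). Their median log2 changes were -0.46 and -0.42. The groups were chosen by their change under U0126, so a smaller median in the other arm carries no weight by itself.

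By calls, 336 of the 1426 rises (23.6%) and 43 of the 1698 falls (2.53%) were also called in DMSO embryos, where 3.83% and 0.385% of all genes were called. The reverse shares were 336 of 428 DMSO rises (78.5%) and 43 of 43 DMSO falls (100%). Under U0126, 12.9% of all genes tested were called higher and 15.3% lower. Of the DMSO rises, 118 were tested there only through their 112-cell libraries, which favours a rise. The number of calls in the arms cannot be compared directly, since the median residual SD was 0.243 on the log2 scale in DMSO embryos and 0.129 under U0126. With a spread common to all 12 libraries, 969 rises and 795 falls were called under U0126 and 1152 and 882 in DMSO embryos. Without replicate 3 the DMSO fit called 1292 rises and 1315 falls, 11.4% and 11.6% of the genes tested. It then held 910 of the U0126 rises (63.8%) and 1099 of the falls (64.7%). In turn, 70.4% of its rises and 83.6% of its falls were called in the same direction under U0126, against 12.9% and 15.3% of all genes.

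Activation that went on in DMSO embryos and was not called under U0126 was the smaller part. Of the 428 genes that rose in DMSO embryos, 2 fell under U0126, 39 were tested and not called, and 51 did not pass the filter under U0126. The 39 had a median log2 change of 0.20 under U0126 and 2.05 in DMSO embryos. Of these 39, 17 were called for the difference, where 0.266% of all genes were. The 51 had medians of 2.43 and 4.72 normalized counts at 64 and 112 cells under U0126, and of 3.89 and 47.8 in DMSO embryos. Their means under U0126 did not exceed 23.6, and 7 of them were called for the difference. Without replicate 3, 910 of 1292 DMSO rises were called higher under U0126, 11 lower, 260 were not called and 111 did not pass the filter. The 260 had a median log2 change of 0.21 under U0126 and 0.54 in DMSO embryos. These genes were chosen by a call in DMSO embryos without the same call under U0126, which favours a difference. The contrast of the medians and the numbers called for the difference are therefore a description.

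The difference itself was tested over all 12 libraries in 11653 genes, with the replicate block. Of these, 31 genes (0.266%) were called, 30 with a lower and 1 with a higher stage change under U0126 than in DMSO embryos, and 481 had an unadjusted p under 0.05. Without the block 18 were called, 17 lower and 1 higher. The count also depended on which libraries entered: it was 0 without replicate 1 or without replicate 2 of every group, and 114 without replicate 3 of every group. Without DMSO replicate 3 at 112 cells it was 144 with the block (116 lower and 28 higher, among them all 31) and 8 with no block (8 lower, of which 6 are among the 31).

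**Figure D5:**
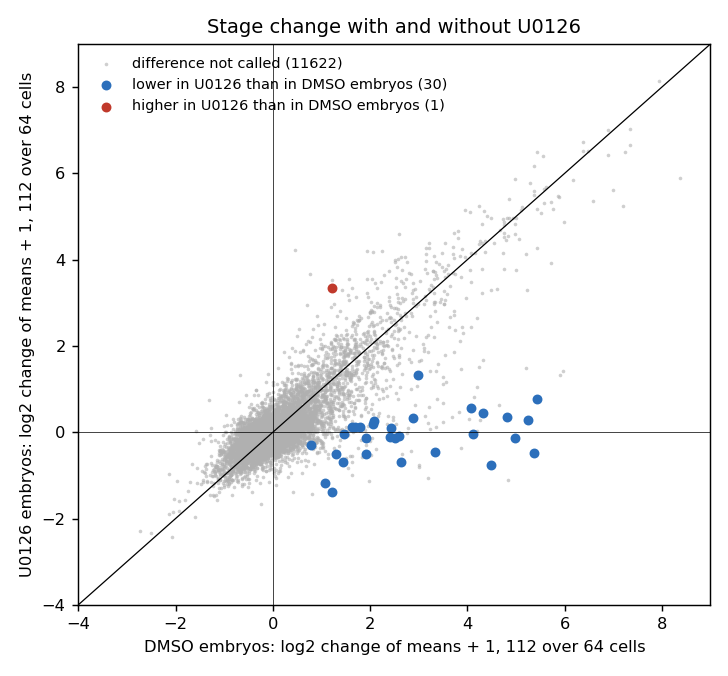
Stage change (log2 of the ratio of group means + 1, 112 over 64 cells) of each tested gene in DMSO embryos (horizontal) and U0126 embryos (vertical), with the line of equal change. Most genes lie along the line, and the 30 genes called with a lower change under U0126 (blue) lie at 0.78 to 5.43 on the DMSO axis and -1.38 to 1.32 on the U0126 axis.

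All 30 genes with a lower stage change under U0126 had a positive one in DMSO embryos. There 27 were called higher, against 3.83% of all genes tested. The test that chose the 30 genes used these same libraries and favours a rise in DMSO embryos without one under U0126. Their median level went from 62.9 to 390 normalized counts in DMSO embryos and from 37.4 to 32.4 under U0126. At 64 cells the median over the 30 genes was 67.4, 54.5 and 64.0 in DMSO replicates 1 to 3 and 39.3, 38.6 and 33.8 under U0126. This gap was not set against that of all genes. Under U0126, 19 of the 30 were tested without a call, 7 did not pass the filter, 3 fell and 1 rose. For most of them no rise was thus called under U0126, which the choice of the genes also favours, so these counts are a description.

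KH.C12.115 had the largest difference of the called genes on the log2(normalized count + 1) scale, on which low genes are understated. DMSO embryos had 12.5, 4.66 and 19.1 normalized counts at 64 cells and 611, 320 and 691 at 112 cells in replicates 1 to 3. U0126 embryos had 10.1, 10.6 and 23.8 at 64 cells and 11.7, 3.17 and 16.0 at 112 cells, so the U0126 libraries of both stages overlapped. The stage change under U0126 was -0.61 on the log2 scale (limma adjusted p = 0.332), and the difference between the arms was -6.08 (SE 0.43, limma adjusted p = 0.00164). KH.C2.629 had 6.25, 9.32 and 4.35 normalized counts in DMSO embryos at 64 cells and 106, 151 and 250 at 112 cells. U0126 embryos had 7.05, 6.34 and 4.97 at 64 cells and 1.07, 7.41 and 1.14 at 112 cells, too low to be tested on their own. The difference between the arms was -5.52 (SE 0.70, limma adjusted p = 0.0131).

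The 3 genes that fell under U0126 while their stage change in DMSO embryos was positive, and the 1 gene that rose less, are named after their values were seen. Without the replicate block none of the 4 differences was called (limma adjusted p = 0.313 for KH.C10.74, 0.102 for KH.C12.211, 0.0543 for KH.C3.762 and 0.0834 for KH.C2.336). KH.C10.74 had 129, 101 and 163 normalized counts at 64 cells and 84.3, 40.2 and 116 at 112 cells under U0126, a log2 change of -0.80 (limma adjusted p = 6.37e-04). In DMSO embryos it went from 250, 169 and 262 to 579, 497 and 781, a log2 change of 1.45 (limma adjusted p = 0.0157). KH.C12.211 had 83.6, 73.9 and 114 normalized counts at 64 cells and 29.9, 21.2 and 51.4 at 112 cells under U0126, a log2 change of -1.45 (limma adjusted p = 1.65e-06). Both genes already lay lower in every U0126 library at 64 cells than in the DMSO library of the same number.

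In DMSO embryos KH.C12.211 went from 183, 106 and 189 normalized counts to 399, 268 and 454, a log2 change of 1.24 (limma adjusted p = 0.0211). KH.C3.762 went from 138, 89.8 and 184 to 67.2, 59.2 and 52.5 under U0126, a log2 change of -1.14 (limma adjusted p = 1.46e-05), and from 135, 138 and 210 to 330, 331 and 352 in DMSO embryos, where its log2 change of 1.10 missed the threshold (limma adjusted p = 0.0517). KH.C2.336 kept part of its rise. It went from 47.3, 53.9 and 57.6 to 127, 125.9 and 150 under U0126, a log2 change of 1.32 (limma adjusted p = 2.10e-07), and from 73.2, 41.9 and 66.1 to 491, 501 and 472 in DMSO embryos, a log2 change of 3.03.

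KH.C2.995 was the 1 gene called with a larger rise under U0126. It had 112, 134 and 155 normalized counts at 64 cells and 1285, 1023 and 1802 at 112 cells in U0126 embryos, a log2 change of 3.32 (SE 0.12, limma adjusted p = 2.24e-23). DMSO embryos had 106, 159 and 137 at 64 cells and 291, 373 and 270 at 112 cells, a log2 change of 1.22. The arms overlapped at 64 cells and were apart at 112 cells, and the difference was 2.11 (SE 0.30, limma adjusted p = 0.0291).

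For the rest, the interval of the difference limits what can be said. Among the 1426 genes that rose under U0126, 1424 were not called for a difference, and for 591 of the 1426 (41.4%) the 95% interval of the difference lay within 2-fold in either direction. Among the 1698 that fell, 1695 were not called, and for 1357 (79.9%) the interval lay within 2-fold, against 62.7% of all genes tested. Without DMSO replicate 3 at 112 cells these shares were 55.5% for the genes that rose, 95.9% for those that fell and 77.7% for all genes tested.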

How the data were processed

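Whole-embryo RNA was sequenced in 12 libraries, 3 for each treatment and stage, with a stranded mRNA kit per the labels' protocols. The authors deposited, per the file headers, counts per gene normalized to library size in a table per stage, a non-negative signal, beside regularized log2 values, which were left aside. The submitters' processing notes name TopHat2 2.9.8b and DESeq 1.8.1. Not given in the sources used here are the read counter, its strand setting and the build, so values of overlapping, antisense and near-identical genes are uncertain.

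Whole reads were recovered by dividing each column by its smallest nonzero value, and 100% of values were whole within 0.01. Median-of-ratios factors recomputed per table matched the deposited scaling to within a relative 5.29e-10. Both tables were joined by identifier, and the reads were scaled together over the 12 libraries. Stage coincides with the table, so a batch by stage cannot be told apart from stage. Genes with at least 10 normalized counts in at least 3 libraries of a fit were tested with limma 3.58.1 (R 4.3.3, trend on the mean) on log2(normalized count + 1), a scale that understates the changes of low genes, with the replicate number as a block. Calls have a Benjamini-Hochberg adjusted p under 0.05. The paired fit has 2 residual degrees of freedom and borrows 33.1 from all genes under U0126 and 2.70 in DMSO embryos, so its small p-values rest on a common spread. Paired fits of an arm without a replicate number have fewer residual degrees of freedom, so their calls lean more on that spread. A single gene tested on its own by exact permutation, 3 against 3 and without the pairing, cannot go below p = 0.1. A permutation within the 3 pairs has fewer arrangements, so its limit is higher. edgeR 4.0.16 and DESeq2 1.42.0 on the recovered reads were alternatives. The fits were tested on simulated data.

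The labels number the replicates in every group without saying what a number shares. Deviations from the group means correlated across genes at 0.710 to 0.784 between same-numbered U0126 libraries of the 2 stages. Over all groups, same-numbered pairs correlated at 0.318 to 0.840, so the pairing by number comes from the data. Between different numbers the U0126 values were -0.544 to -0.187. Deviations cancel within a group, which makes such values negative once same numbers correlate, so they add no support. No replicates were duplicates: the chi-square per gene was 18.8 to 128. If replicates shared a spawn, p-values measure only the spread between these samples.

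The comparison and lists were chosen with earlier results of these data known. Genes named are the 2 largest rises and falls with the same direction in 3 pairs and a mean of at least 50 at the higher stage, the 2 most abundant newly activated genes, and up to 2 differences per direction, besides those said to be named after their values were seen. Alternatives covered block, tool, pseudocount, filter, scaling and libraries left out. The fit without DMSO replicate 3 at 112 cells was chosen after seeing the data.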

Additional observations from a re-analysis of the deposited data

Results flagged for a closer look

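The test of the difference between the arms singled out 31 genes whose stage change under U0126 differed from that in DMSO embryos. In log2 units the difference was -6.08 for KH.C12.115, -5.52 for KH.C2.629, -5.09 for KH.S1090.3, -2.69 for KH.C12.211, -2.25 for KH.C10.74, -2.23 for KH.C3.762 and -1.71 for KH.C2.336, each a lower stage change under U0126. It was 2.11 for KH.C2.995, a higher one. DMSO replicate 3 at 112 cells, with 210 genes lower there by 4-fold or more than anywhere else, enters this test. Without it all 31 genes were called with the replicate block kept, and 6 of them with no block. Groups held 3 samples, too few to look for single outlying samples by a gap test.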

How the results depend on the processing

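Against 3124 genes called for the stage change under U0126 with the replicate block, 824 were called without the block, 825 by edgeR without it, 1764 with all 12 libraries in the fit and 1999 by DESeq2. Leaving out a replicate number in both stages gave 1751 to 5061 genes, the highest without replicate 2. Leaving out a single library, with no block, gave 629, 601 and 548 for replicates 1 to 3 at 64 cells and 436, 635 and 461 at 112 cells. The other 8 alternatives stayed within 1.5 times, and no gene was called in the opposite direction in any alternative. The 45 newly activated genes became 5 with a filter at 50, which removes low genes by construction, 71 to 82 without a replicate number, and 20 to 29 without a 112-cell library. The 102 falls of at least 2-fold became 67 without the block, 60 by edgeR without it, 41 to 55 without a 64-cell library, and 33 without U0126 replicate 3 and 35 without U0126 replicate 1 at 112 cells. The highest count was 143, without replicate 2.

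The 471 DMSO calls became 2034 with all 12 libraries in the fit, 859 by DESeq2 and 288 with a filter at 50. They became 377 to 2607 without a replicate number, the highest without replicate 3, and, with no block, 285, 280 and 237 without replicates 1 to 3 at 64 cells and 238 to 252 without replicate 1 or 2 at 112 cells. The 379 calls shared by the arms became 295 to 1360. The 31 differences became 18 without the block, 14 by edgeR without it, 91 by DESeq2 and 76 with a pseudocount of 8. They became 0 without replicate 1 or 2, 114 without replicate 3, and 144 without DMSO replicate 3 at 112 cells with the block kept (8 with no block). With no block, single libraries left out gave 0 to 3 and 2 to 9 at 64 cells, and 0 to 8 and 1 to 10 at 112 cells, for DMSO and U0126 in turn. The causes were not tested.

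The 6 genes named by rule for their change under U0126 kept their call in 21 of 21 alternatives. The differences lost it in 13 of 26 for KH.C12.115 (limma, edgeR or DESeq2 adjusted p 4.91e-25 to 0.299), 14 of 26 for KH.C2.629 (1.65e-06 to 0.379), 13 of 26 for KH.C2.995 (3.99e-07 to 0.582), 16 of 26 for KH.C10.74 (4.91e-12 to 0.76), KH.C12.211 (5.14e-16 to 0.351) and KH.C3.762 (3.11e-08 to 0.543), 17 of 26 for KH.C2.336 (6.11e-06 to 0.665) and 13 of 25 for KH.S1090.3 (0.00107 to 0.361), without a change of sign. Scaling over the libraries of the fit is the main setting for the difference and gives no further value there. Counting depth limits what can be said of newly activated genes and of genes under 10 normalized counts at 64 cells. By edgeR and DESeq2 with the block, the difference of KH.S1090.3 was -8.14 and -7.71 in log2 units, beyond -6.05 and -6.10 for KH.C12.115.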
